A study of Mus musculus with 39 samples.

Results

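Hedgehog ligands, receptors and Gli factors form a set of 9 genes, *Dhh*, *Shh*, *Ptch1*, *Smo*, *Gli1*, *Gli2*, *Gli3*, *Hhip* and *Gas1*, chosen by symbol and matched to their Ensembl identifiers among the 55573 genes counted in sciatic nerve endoneuria. All 9 passed the expression filter that left 18442 genes for testing. The mice were of C57BL/6 background, 2 to 4 months old and of both sexes, and all carried floxed *Lepr* alleles (Lepr fl/fl). Control mice (*Lepr*-ctrl) had no Cre, whereas *Lepr*-cKO mice (Lepr fl/fl::Dhh-Cre) also carried Dhh-Cre, a transgene in which regulatory sequence of *Dhh* drives Cre recombinase in Schwann cells. The sciatic nerve was crushed on one side, and endoneuria distal to the lesion (injured) and from the uninjured contralateral side (healthy) were collected 2 or 4 weeks post crush (wpc) from different mice. Mice are named by letters within each genotype and time, with no order implied. Of the 39 libraries from 22 mice, *Lepr*-ctrl gave 5 healthy and 5 injured nerves at 2 wpc and 5 healthy and 4 injured nerves at 4 wpc, and *Lepr*-cKO gave 6 healthy and 5 injured nerves at 2 wpc and 5 healthy and 4 injured nerves at 4 wpc. Because every *Lepr*-cKO mouse and no control mouse carried Dhh-Cre, loss of *Lepr* and presence of a transgene built on *Dhh* sequence cannot be told apart in the genotype comparisons, and counts per gene do not separate transcripts of the endogenous *Dhh* gene from any that the transgene may give.

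Hedgehog ligands are secreted proteins that bind the receptor Ptch1, which otherwise holds the transducer Smo inactive. Without a signal, Gli factors are cut into repressors, active Smo prevents this so that full-length Gli can act as an activator, and transcription of *Gli1*, *Ptch1* and *Hhip* is a widely used readout of the pathway. In peripheral nerve, Schwann cells are the known source of the ligand Dhh, which acts on neighbouring mesenchymal cells and is required for a normal perineurial sheath.

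*Dhh* (ENSMUSG00000023000) lies on the minus strand of chromosome 15 from 98891152 to 98898540 (GRCm38) and has 3 exons. An antisense gene, *Gm49442* (ENSMUSG00000116033, plus strand, 98893351 to 98895175), lies inside it. Of its 1460 exon bases, 1107 fall within *Dhh* exons, and these make up 25.16% of the *Dhh* exon bases. The library kit (TruSeq RNA v2) does not mark strand, so reads from the shared bases cannot be assigned to one gene or the other, and whether the counting used strand is not given in the sources used here. The other 353 *Gm49442* exon bases lie in *Dhh* introns, namely the whole of intron 2 (chr15:98894561-98894812, 252 bases) and part of intron 1 (chr15:98895075-98895175, 101 bases). Both stretches are shown on the plus strand because they are the only positions at which a read can count for *Gm49442* without touching a *Dhh* exon, with the end bases of the *Dhh* introns in capitals (CT and AC on this strand).
Gm49442 in Dhh intron 2: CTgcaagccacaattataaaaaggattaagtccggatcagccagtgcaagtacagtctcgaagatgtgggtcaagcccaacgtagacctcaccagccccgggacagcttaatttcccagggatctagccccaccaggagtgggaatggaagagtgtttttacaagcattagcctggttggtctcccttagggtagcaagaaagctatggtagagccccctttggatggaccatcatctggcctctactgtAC
Gm49442 in Dhh intron 1: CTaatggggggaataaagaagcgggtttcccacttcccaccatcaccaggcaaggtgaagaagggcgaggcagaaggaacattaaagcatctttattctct
The 250 bases before the annotated *Dhh* start (chr15:98898541-98898790, minus strand, RefSeq, GRCm38.p6) are shown as the reference sequence next to the gene whose regulatory sequence gave the Cre driver its name, with each match to the GC box GGGCGG, on either strand, in capitals.
Dhh promoter: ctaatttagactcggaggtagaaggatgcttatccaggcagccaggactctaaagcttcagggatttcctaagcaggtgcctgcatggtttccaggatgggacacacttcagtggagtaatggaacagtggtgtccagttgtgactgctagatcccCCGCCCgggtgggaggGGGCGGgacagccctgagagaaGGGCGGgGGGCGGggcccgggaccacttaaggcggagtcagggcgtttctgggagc
Promoter windows of 250 bases before to 50 bases after the start were at hand for 7 of the 9 genes (not for *Shh* and *Gli1*). GGGCGG, searched on both strands, occurred in 6 of these 7 windows and in 35.7% of all 32851 windows. The letters TGGGTGGTC, the core motif known for Gli factors, occurred on either strand in 0 of the 7 windows and in 0.253% of all windows.

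The libraries held between 10905806 and 45016322 counts, with the smallest totals in injured nerves at 4 wpc, where a gene at 1 CPM, the usual unit of counts scaled by library size, has as few as 10.9 counts. The Schwann cell markers *Sox10*, *S100b*, *Erbb3* and *Foxd3* were counted in every library. Summed over the list they were at 1738 to 2567 CPM in healthy and 632 to 2032 CPM in injured nerves. Of the libraries, 4 stood apart in ways that touch the results. The injured *Lepr*-ctrl nerve of mouse E (2 wpc) had the lowest sum of 6 myelin genes of all injured nerves (9687 CPM), the injured *Lepr*-cKO nerve of mouse B (2 wpc) held 37530 CPM of 8 skeletal muscle genes where the other 4 nerves of its group held at most 23.86, and the injured *Lepr*-cKO nerve of mouse D (4 wpc) had the lowest sum of Schwann cell markers of its group (749.6 CPM, against 1122 to 2032). In the same group, the injured nerve of mouse A held 1199 CPM of 6 repair Schwann cell genes, against 312 to 330.8 in the others, and 9141 CPM of endoneurial fibroblast genes, against 3290 to 5072. *Lepr*, the targeted gene, was not called between genotypes in any of the 4 comparisons (edgeR adjusted p 0.362 to 1), with 95% intervals of the log2 fold change from -1.21 to 0.13 in injured nerves at 4 wpc and from -0.20 to 0.98 at 2 wpc, so a difference was not shown to be absent. The authors state that the mutants lack exon 1 and still make a truncated receptor, so counts over the whole gene cannot check the knockout. By qPCR they report less *Lepr* mRNA in injured *Lepr*-cKO endoneuria at 2 wpc.

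Per length of transcript, *Dhh* was the most abundant of the 9 genes in all 8 groups. In healthy *Lepr*-ctrl nerves at 2 wpc, the level in RPKM (CPM divided by the exon length in kilobases) was 88.8 ± 4.82 (SD, n = 5) for *Dhh*, 14.1 ± 1.08 for *Smo*, 10.1 ± 3.33 for *Ptch1* and 9.86 ± 3.64 for *Gli1*. Below these came *Shh* at 3.57 ± 0.384, *Gas1* at 2.41 ± 0.366, *Gli2* at 1.79 ± 0.380, *Gli3* at 0.365 ± 0.120 and *Hhip* at 0.0448 ± 0.0393 RPKM. *Smo*, *Ptch1* and *Gli1* lay within their SDs of their neighbours in this order, as did *Gas1* and *Gli2*, while the other steps exceeded the SDs. In injured *Lepr*-ctrl nerves at 4 wpc, *Dhh* was at 21.1 ± 5.01 RPKM (SD, n = 4) and *Gli1* at 11.1 ± 3.07, followed by *Ptch1* at 8.60 ± 2.54, *Smo* at 5.87 ± 0.570, *Shh* at 3.69 ± 1.54 and *Gas1* at 2.92 ± 1.81. *Smo* thus stood below *Gli1* and *Ptch1* in this group and above them in healthy *Lepr*-ctrl nerves at 2 wpc.

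**Figure D1:**
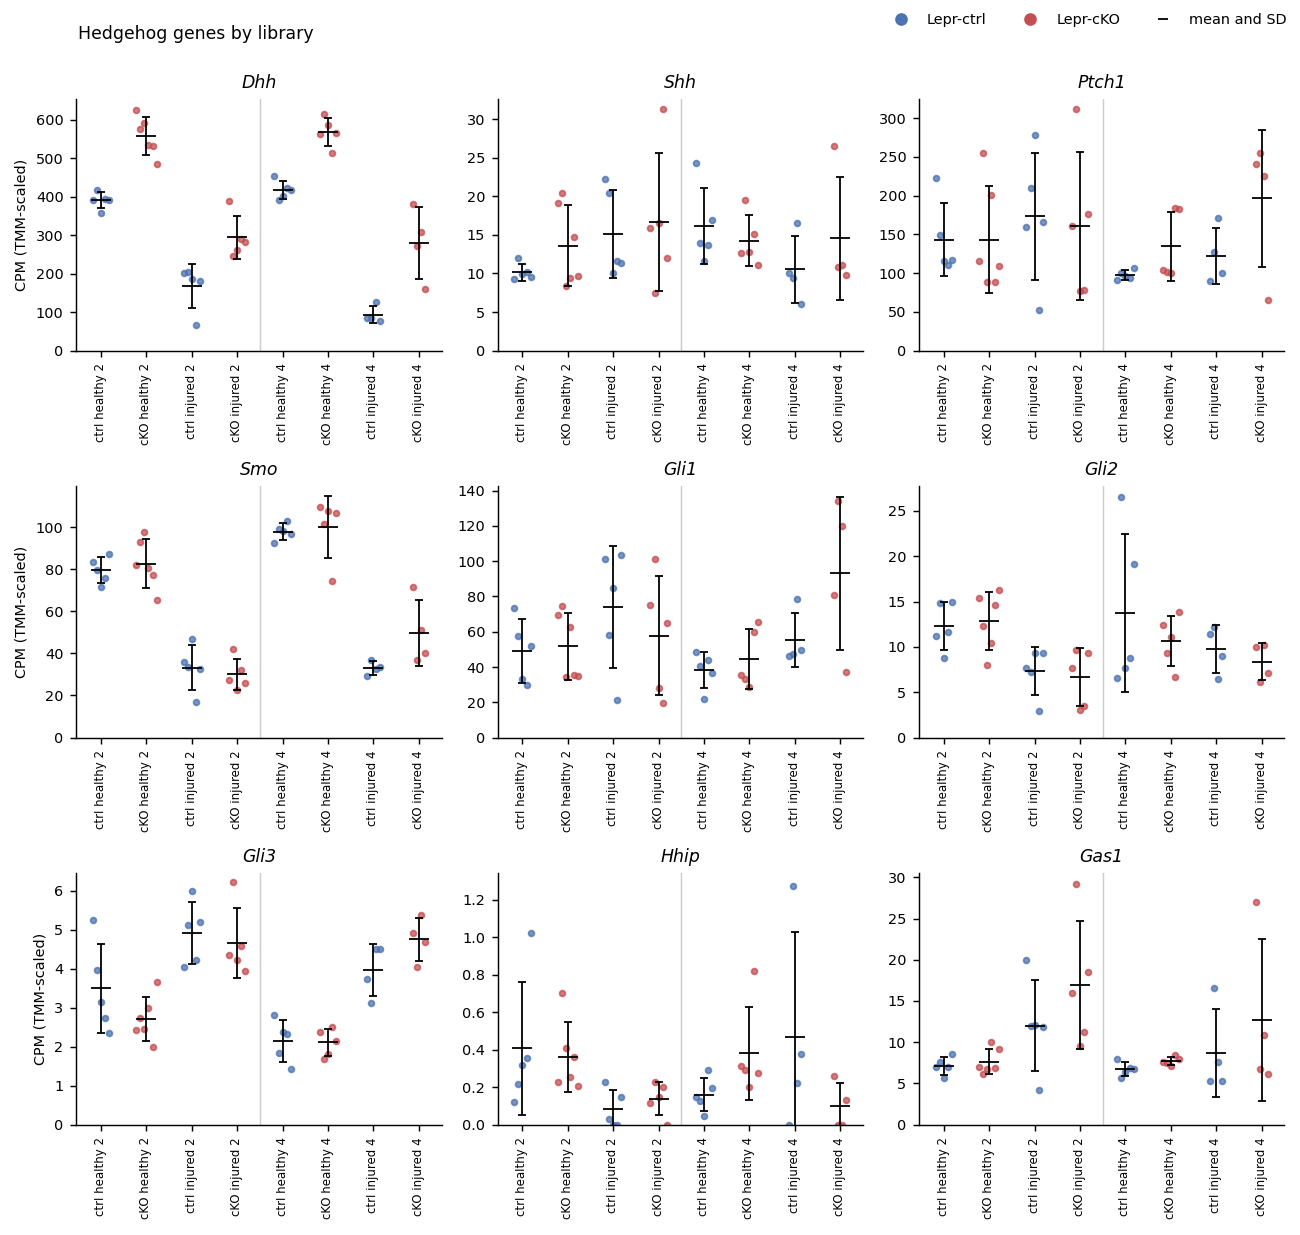
Level of each of the 9 genes in every library, in CPM scaled with TMM factors (vertical axis, linear and starting at 0), for the 8 groups (horizontal axis, with ctrl and cKO for the genotypes, healthy or injured nerve and weeks post crush). Points are libraries and black bars the mean and SD. *Dhh* and *Smo* are lower in injured nerves, and *Dhh* is higher in *Lepr*-cKO than in *Lepr*-ctrl in each nerve state and at each time.

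The first comparison asked how the crush changed these genes. A gene was called at a p under 0.05 after Benjamini-Hochberg adjustment if its log2 fold change also exceeded 1 in size. In *Lepr*-ctrl nerves 3 of 9 genes were called at 2 wpc, all lower (*Dhh*, *Smo* and *Hhip*), where 34.1% of all tested genes were called (19.8% higher and 14.3% lower). At 4 wpc 2 of 9 were called, *Dhh* and *Smo*, both lower, against 36% of all genes (20.1% higher and 15.9% lower). In *Lepr*-cKO nerves 2 of 9 were called at 2 wpc (*Smo* lower, *Gas1* higher), against 34.3% of all genes (20.9% higher and 13.4% lower), and 4 of 9 at 4 wpc (*Dhh* and *Smo* lower, *Gli1* and *Gli3* higher), against 27.6% (16.8% higher and 10.8% lower). By the adjusted p alone, 63.9%, 65.1%, 63.6% and 55.3% of all genes passed in *Lepr*-ctrl and *Lepr*-cKO at 2 wpc and in the same order at 4 wpc. These shares are close to or only somewhat above or below the background, so the counts are no result about the set, and the genes are described one by one. In bulk tissue, fewer cells of a type and less RNA per cell cannot be told apart.

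Among the ligands, *Dhh* was lower after injury in all 4 comparisons. It was called in 3 of them, and in *Lepr*-cKO at 2 wpc it passed the adjusted p alone. In *Lepr*-ctrl mice at 2 wpc its levels were 391, 418, 358, 395 and 391 CPM in healthy and 202, 204, 66.0, 180 and 187 CPM in injured nerves. At 4 wpc the 5 healthy nerves had 453, 390, 400.5, 423.5 and 416.5 CPM and the 4 injured nerves 85.3, 84.9, 125.2 and 75.8 CPM. No injured nerve reached the lowest healthy nerve at either time, and the libraries of 24.1% and 27.4% of all tested genes were likewise separate and lower after injury. At 2 wpc the log2 fold change was -1.22 with a standard error of 0.20 (edgeR adjusted p = 2.1e-06). It was -2.17 with a standard error of 0.22 at 4 wpc (edgeR adjusted p = 2.81e-10).

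In *Lepr*-cKO mice the healthy nerves at 2 wpc had 486 to 625 CPM of *Dhh* with a median of 554 (n = 6), and the injured nerves had 389, 246, 261, 290.5 and 282 CPM. At 4 wpc the healthy nerves had 562, 614, 586, 513.5 and 566 CPM and the injured nerves 381, 270.5, 308 and 159 CPM. The groups again did not overlap, as for 20.9% of all genes, lower after injury, at either time. The log2 fold change at 4 wpc was -1.02 (standard error 0.21, edgeR adjusted p = 0.000113), and without mouse D it was -0.85 and no longer past the fold threshold. Without the injured nerve of mouse A, which had the highest *Dhh* level of the group, it was -1.21. At 2 wpc it was -0.92 (standard error 0.19, edgeR adjusted p = 7.06e-05), which passed the adjusted p but not the fold threshold. Within mice, the injured nerve had less *Dhh* than the healthy nerve in 17 of 17 animals. How many of all genes reach such within-mouse counts was not computed, for *Dhh* or for the genes below. The Schwann cell markers moved with *Dhh* in part. In *Lepr*-ctrl 1 of 4 was called lower at 2 wpc and 3 of 4 at 4 wpc, and their summed median was 2109 CPM in healthy and 1064 CPM in injured nerves at 2 wpc and 2442 and 804.85 CPM at 4 wpc. In *Lepr*-cKO 2 of 4 were called lower at 2 wpc and 1 of 4 at 4 wpc, with medians of 2262 and 899.5 CPM and of 2408 and 1244 CPM. Their part in the *Dhh* result was not tested.

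*Shh*, the second ligand, was weakly expressed at 6.01 to 31.3 CPM over all libraries and was not called in any comparison of injured with healthy nerves. Its log2 fold changes were 0.57 (95% interval -0.08 to 1.22) and 0.29 (-0.33 to 0.90) at 2 wpc in *Lepr*-ctrl and *Lepr*-cKO, and -0.61 (-1.31 to 0.10) and 0.04 (-0.65 to 0.73) at 4 wpc. It was lower in the injured nerve in 9 mice and higher in 8, so that no common direction was seen. In *Lepr*-cKO at 4 wpc the value was -0.43 without the injured nerve of mouse A, which had the highest *Shh* level of its group.

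The receptor gene *Ptch1* was not called in any of the 4 injury comparisons. In *Lepr*-ctrl it ranged from 111 to 223 CPM in healthy and from 52.6 to 278 CPM in injured nerves at 2 wpc, and from 91.7 to 107 and from 90.4 to 170.8 CPM at 4 wpc. In *Lepr*-cKO the ranges were 88.8 to 255 and 77.6 to 312 CPM at 2 wpc and 100.5 to 184 and 65.3 to 255 CPM at 4 wpc. All 4 pairs of groups overlapped, with log2 fold changes of 0.28, 0.17, 0.32 and 0.55 whose 95% intervals lay between -0.55 and 1.35. Within mice, *Ptch1* was higher in the injured nerve in 12 of 17 animals. *Gas1*, which encodes a cell surface protein that helps present the ligand to Ptch1, rose in *Lepr*-cKO nerves at 2 wpc, from 6.09 to 9.98 CPM in healthy (median 6.93, n = 6) to 16.0, 29.2, 9.59, 11.2 and 18.5 CPM in injured nerves. The log2 fold change was 1.15 (standard error 0.32, edgeR adjusted p = 0.00227). It was 0.87 (edgeR adjusted p = 0.0162) without mouse B, whose library holds muscle transcripts and had the highest *Gas1* value of the group, and over 13 alternatives the adjusted p ranged from 0.000563 to 0.0162. The same library also held 1343 CPM of 6 adipocyte genes, against at most 101 in the other nerves of its group. Its perineurial genes summed to 654.5 CPM, against 266.3 to 434.9. The part of the muscle, adipocyte and perineurial transcripts was not tested. In the other comparisons *Gas1* had log2 fold changes of 0.75 (*Lepr*-ctrl, 2 wpc), 0.37 (*Lepr*-ctrl, 4 wpc) and 0.73 (*Lepr*-cKO, 4 wpc) and was not called. The last of these was 0.04 without the injured nerve of mouse A. With the animal as a block, *Gas1* in *Lepr*-ctrl at 2 wpc was at 0.94 (edgeR adjusted p = 0.026), short of the fold threshold. Within mice, *Gas1* was higher in the injured nerve in 13 of 17 animals.

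*Smo*, the transducer of the signal, fell in all 4 comparisons. In *Lepr*-ctrl nerves at 2 wpc it was at 83.4, 79.6, 71.8, 75.8 and 87.1 CPM in healthy and 36.1, 33.6, 17.1, 32.6 and 46.7 CPM in injured nerves. At 4 wpc the values were 92.4, 98.9, 98.3, 103 and 96.8 CPM and 29.1, 36.9, 32.6 and 33.3 CPM. In *Lepr*-cKO nerves it was at 65.6 to 97.6 CPM in healthy (median 81.4, n = 6) and at 27.4, 41.9, 22.8, 32.2 and 26.1 CPM in injured nerves at 2 wpc. The last groups, *Lepr*-cKO at 4 wpc, had 110, 101, 108, 74.6 and 107 CPM in healthy and 71.6, 36.7, 51.0 and 40.0 CPM in injured nerves. Every injured group lay below its healthy group without overlap. In *Lepr*-ctrl, 24.1% and 27.4% of all genes were likewise separate and lower after injury at 2 and 4 wpc. In *Lepr*-cKO the share was 20.9% at either time. Within mice, the injured nerve had less *Smo* in 17 of 17 animals. The log2 fold changes were -1.26 (edgeR adjusted p = 2.03e-07) and -1.57 (1.81e-08) in *Lepr*-ctrl and -1.46 (6.51e-09) and -1.004 (3.76e-05) in *Lepr*-cKO at 2 and 4 wpc. The last of these sat on the fold threshold of 1 and fell short of it in 5 fits that each left out 1 library (-0.91 to -0.99), as it did with at least 10 counts in every library (-0.988) and with the compared groups alone (-0.995). *Smo* and *Dhh* correlated over the 39 libraries with r = 0.797, and with r = 0.623 after the group means were removed, a description across libraries that share the groups. With the Schwann cell marker *Sox10*, *Smo* had r = 0.893 (0.586 within groups) and *Dhh* r = 0.835 (0.770 within groups), and the part of Schwann cell content in the *Smo* result was not tested.

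The 3 Gli factors differed in direction. *Gli3*, mainly known as a repressor, was higher in the injured nerve in 17 of 17 mice, with log2 fold changes of 0.49 and 0.88 in *Lepr*-ctrl and 0.78 and 1.17 in *Lepr*-cKO at 2 and 4 wpc. Its injured and healthy libraries overlapped in *Lepr*-ctrl at 2 wpc and were separate in the other 3 comparisons. Of all genes, 23.8% and 27.4% (*Lepr*-ctrl) and 20.5% and 21% (*Lepr*-cKO) had separate libraries that were higher after injury at 2 and 4 wpc. All 4 passed the adjusted p (edgeR, 0.0287, 0.000632, 0.000471 and 1.9e-05), but only the last passed the fold threshold. There, the healthy nerves had 2.38, 1.69, 1.82, 2.505 and 2.16 CPM and the injured nerves 4.92, 4.05, 5.38 and 4.70 CPM, without overlap. With the animal as a block, *Gli3* was also called in *Lepr*-ctrl at 4 wpc (1.00, edgeR adjusted p = 0.00154). *Gli2*, mainly known as an activator, was lower in the injured nerve in 15 of 17 mice. It passed only the adjusted p in *Lepr*-cKO at 2 wpc (-0.94, standard error 0.33, edgeR adjusted p = 0.0119), and with the animal as a block it was called there (-1.01, edgeR adjusted p = 0.000743). Its other log2 fold changes were -0.74, -0.49 and -0.35, none past the adjusted p.

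*Gli1*, both a Gli factor and a target of the pathway, rose in *Lepr*-cKO nerves at 4 wpc. The healthy nerves had 35.3, 33.3, 28.9, 59.6 and 65.8 CPM and the injured nerves 80.9, 134, 120 and 37.0 CPM. Of the 4 injured nerves, 3 were above every healthy nerve, and the fourth, of mouse D, was among the low healthy ones. The log2 fold change was 1.06 (standard error 0.41, edgeR adjusted p = 0.0279), and leaving out single libraries ended the call in 5 of 9 fits (0.81 to 0.99, without healthy mice A, B or C or injured mice B or C). In *Lepr*-ctrl nerves *Gli1* was at 29.8 to 73.7 CPM in healthy and at 101.5, 58.4, 21.2, 103 and 85.0 CPM in injured nerves at 2 wpc (log2 fold change 0.59, edgeR adjusted p = 0.187). With the animal as a block, to which a mouse with 1 library such as mouse E adds nothing, *Gli1* was called there (1.03, edgeR adjusted p = 0.0221). The other log2 fold changes were 0.53 (*Lepr*-ctrl, 4 wpc) and 0.16 (*Lepr*-cKO, 2 wpc), neither called, and the latter was -0.07 under the block. Within mice, *Gli1* was higher in the injured nerve in 14 of 17 animals, 4 of 4 among *Lepr*-ctrl at either time. In *Lepr*-cKO at 4 wpc the 6 perineurial genes had summed medians of 262.7 (healthy) and 401.55 CPM (injured), and 1 was called higher. In mouse D the sum was 345.6 CPM in the healthy and 272.4 CPM in the injured nerve. Over all libraries *Gli1* and *Gli3* had r = 0.696 and 0.790 with the perineurial marker *Cldn1*. With *Slc2a1*, another such marker, r was -0.146 and 0.161. The part of perineurial content in the *Gli1* and *Gli3* results was not tested.

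*Hhip*, an inhibitor at the cell surface that binds the ligands and a target of the pathway, was close to the limit of detection, with 0 to 23 counts per library. In *Lepr*-ctrl nerves at 2 wpc it had 4, 7, 14, 12 and 23 counts in healthy and 6, 1, 0, 4 and 0 counts in injured nerves. The fitted log2 fold change was -2.21 (standard error 0.81, edgeR adjusted p = 0.0167), and it was not called without the healthy nerve of mouse F, which had the 23 counts (-1.60, edgeR adjusted p = 0.0904). The other 3 comparisons gave -1.36, 1.498 and -1.78 (*Lepr*-cKO at 2 wpc, *Lepr*-ctrl and *Lepr*-cKO at 4 wpc) with no call, and 95% intervals that each spanned more than 2 log2 units. The last was called without the injured nerve of mouse A (-3.14, edgeR adjusted p = 0.0261), and over single libraries its adjusted p ranged from 0.0261 to 0.216. The values of *Hhip* thus rest on few counts at this depth.

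**Figure D2:**
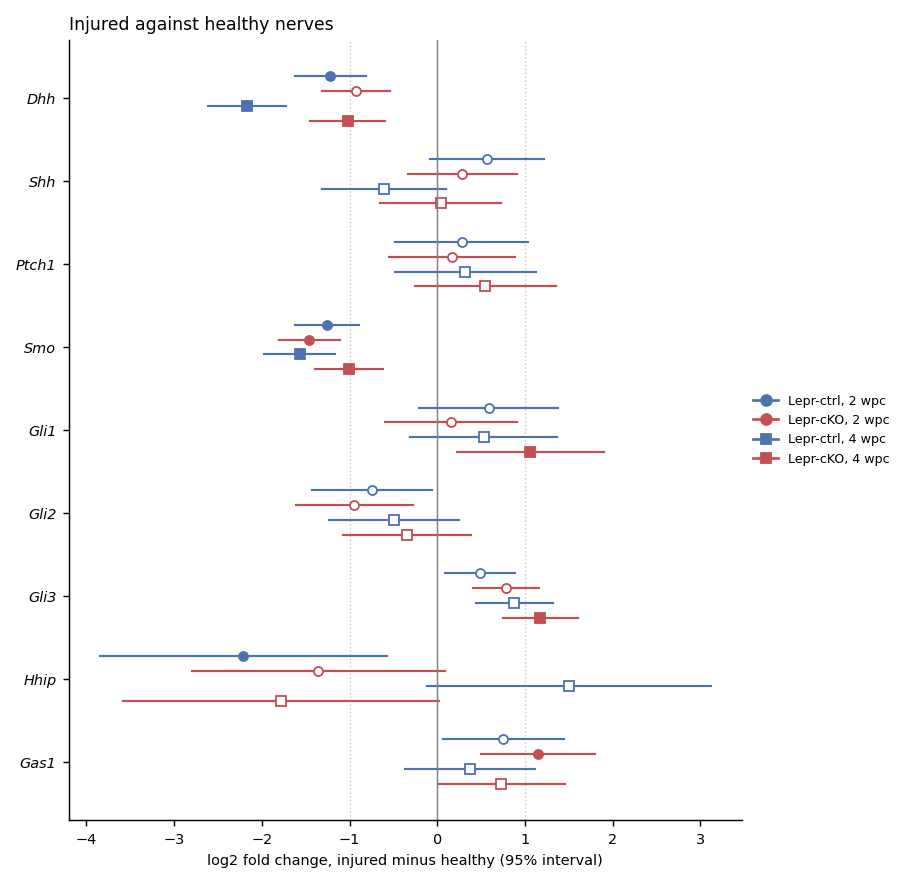
Log2 fold change of injured against healthy nerves (horizontal axis) with its 95% interval for the 9 genes (vertical axis), in the 2 genotypes (colours) and at 2 wpc (circles) and 4 wpc (squares). Filled symbols were called and open ones were not, and dotted lines mark a log2 fold change of 1 in each direction. *Smo* is filled on the left in all 4 comparisons, and the intervals of *Ptch1* all cross 0.

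Around these genes, 41 of 42 further pathway genes in 5 lists were tested. Of the 41, 5 were called higher and 6 lower in *Lepr*-ctrl at 2 wpc, 5 and 6 in *Lepr*-cKO at 2 wpc, 6 and 8 in *Lepr*-ctrl at 4 wpc and 4 and 8 in *Lepr*-cKO at 4 wpc, with medians of -0.220, -0.129, -0.232 and -0.142 against 0.0778, 0.0965, 0.0242 and 0.0566 over all genes. Of all genes, 34.1%, 34.3%, 36% and 27.6% were called in these comparisons, and against this background the counts are no result about the lists. Among 6 ligand and release genes, 1 was called higher in each comparison, the ligand *Ihh*, at 2 to 41 counts per library. Its mean was 0.223 CPM in healthy and 0.736 CPM in injured *Lepr*-ctrl nerves at 2 wpc (log2 fold change 1.73, edgeR adjusted p = 0.00154), and the other log2 fold changes were 1.15 to 1.76 (edgeR adjusted p 0.00289 to 0.0399). *Disp1*, which releases lipidated ligands from the cell, fell 4 of 4 times, from 162 ± 13.9 to 40.0 ± 14.9 CPM (SD, n = 5 and 5) in *Lepr*-ctrl at 2 wpc. *Scube1*, of the family that carries released ligands, also fell in all 4 comparisons, with log2 fold changes of -1.12 to -1.59. The co-receptors went in opposite directions: *Cdon* fell in all 4 (-1.44 to -2.14), and *Boc* rose in all 4 (1.45 to 2.18), from 2.97 ± 1.70 to 10.4 ± 3.36 CPM in *Lepr*-ctrl at 2 wpc. *Evc2*, part of the complex that relays Smo activity at the base of the cilium, fell most among the regulators in each comparison, from 268 ± 43.9 to 39.6 ± 10.6 CPM in *Lepr*-ctrl at 2 wpc (log2 fold change -2.76, edgeR adjusted p = 1.07e-14) and from 218 ± 25.6 to 56.0 ± 17.0 CPM in *Lepr*-cKO at 4 wpc (-1.96, edgeR adjusted p = 3.32e-10). Of 5 genes of the primary cilium, 0 were called by edgeR in these comparisons, where 2 or 3 each passed the adjusted p alone, as did 55.3% to 65.1% of all genes.

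Of 9 further genes reported as targets of the pathway, 2 and 4 were called higher in *Lepr*-ctrl at 2 and 4 wpc, and 3 and 2 in *Lepr*-cKO. In either genotype 0 were called lower at 2 wpc and 1 at 4 wpc. Of all genes, 19.8% and 20.1% were called higher in *Lepr*-ctrl, and 20.9% and 16.8% in *Lepr*-cKO. With so few genes, the counts are no result about the list. *Foxf1* rose in all 4 comparisons, with log2 fold changes of 1.32 to 2.07. *Ccnd1*, a cyclin that many mitogens induce, was called higher in 3 of them, and *Mycn* was called lower at 4 wpc in both genotypes (-2.04 and -1.22).

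Across the 39 libraries, the likeness of patterns was taken as Pearson r over the 12786 other tested genes with a mean log2 CPM above 1. Among the genes most like *Gli1* were *Fzd2*, *Pkdcc*, *Mrc2* and *Adam33* with r = 0.885, 0.876, 0.867 and 0.848. *Ptch1* and *Gli1* correlated with r = 0.843, and with r = 0.851 after removal of the group means. Of a pair of perineurial markers, *Ptch1* had r = 0.714 with *Cldn1* and r = -0.054 with *Slc2a1*. Among the genes most like *Dhh* were *Faf2* (0.926), *Sema6d* (0.915), *Tspan15* (0.912) and *Itga6* (0.910), and *Dhh* and *Gli1* had r = -0.063. Within groups *Dhh* and *Gli1* had r = 0.558. *Shh* had weaker partners, led by *Mta2* (0.730) and *Shank1* (0.659). These correlations are descriptions, since the libraries share groups, animals and tissue makeup.

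**Figure D3:**
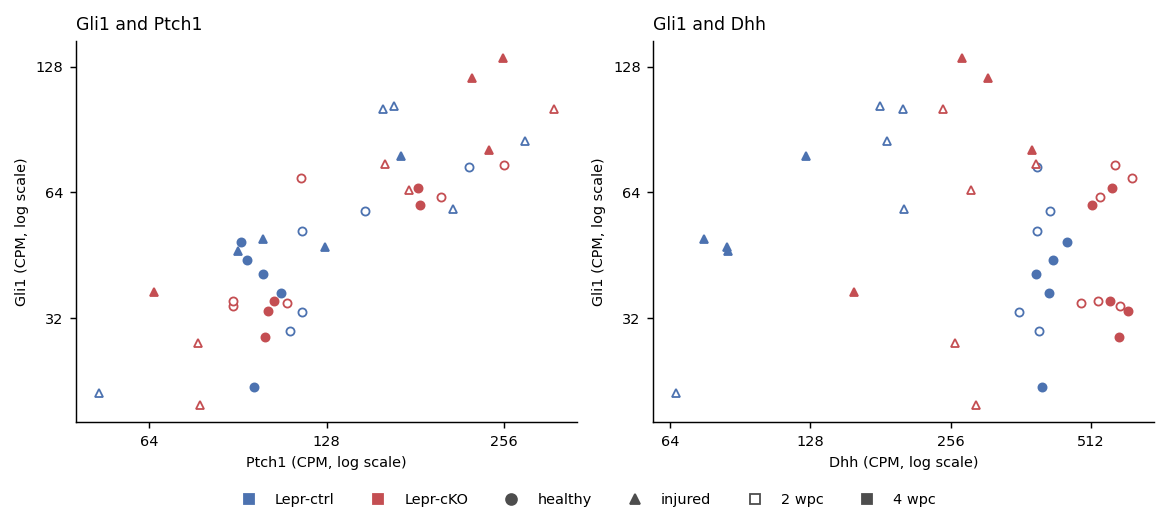
*Gli1* (vertical axis) against *Ptch1* (left) and against *Dhh* (right) in the 39 libraries, in CPM on log axes. Colours give the genotype, circles healthy and triangles injured nerves, and open symbols 2 wpc and filled symbols 4 wpc. *Gli1* and *Ptch1* rise together over all groups (r = 0.843), while *Gli1* and *Dhh* do not (r = -0.063). After removal of the group means r is 0.85 for *Gli1* and *Ptch1* and 0.56 for *Gli1* and *Dhh*.

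The second comparison asked whether *Dhh* differs between genotypes and whether the targets follow. *Dhh* was higher in *Lepr*-cKO in all 4 comparisons, without overlap between the genotypes. As listed above, healthy nerves at 2 wpc had 358 to 418 CPM in *Lepr*-ctrl and 486 to 625 CPM in *Lepr*-cKO, and at 4 wpc 390 to 453 and 513.5 to 614 CPM. The injured nerves had 66.0 to 204 and 246 to 389 CPM at 2 wpc and 75.8 to 125.2 and 159 to 381 CPM at 4 wpc. Libraries separate in this direction were found for 0.103% and 0.531% of all tested genes in healthy nerves at 2 and 4 wpc and for 0.103% and 2.92% in injured nerves.

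By the test across all genes, *Dhh* was called higher in *Lepr*-cKO in 1 of these 4 comparisons. In injured nerves at 4 wpc, where 0.45% of all genes were called, the log2 fold change was 1.59 (standard error 0.22, edgeR adjusted p = 0.000232). It stayed between 1.40 and 1.77 over 15 alternatives with adjusted p from 4.2e-09 to 0.315, the last when only the 2 groups compared were fitted, which ended the call. In injured nerves at 2 wpc, where 0.569% of genes were called, it was 0.81 (standard error 0.20, edgeR adjusted p = 0.0399) and short of the fold threshold, where 0.58% of all genes passed the adjusted p (1.31% in injured nerves at 4 wpc). The genes called at 2 wpc included all 8 skeletal muscle genes, and the part of the muscle-bearing library of mouse B in these shares was not tested. Without single libraries, the log2 fold change of *Dhh* at 2 wpc ranged from 0.60 to 0.90, with edgeR adjusted p from 0.0194 to 0.345. In healthy nerves it was 0.51 (standard error 0.19) at 2 wpc and 0.45 (standard error 0.19) at 4 wpc, with unadjusted p of 0.0098 and 0.0274 and an adjusted p of 1 each, where 0.00542% of genes were called at either time and 0.0108% and 0.00542% passed the adjusted p.

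On the linear scale the difference in *Dhh* between genotypes was of similar size in every state. *Lepr*-cKO exceeded *Lepr*-ctrl by 166 ± 22.4 CPM (standard error) in healthy nerves at 2 wpc and by 152 ± 19.7 CPM at 4 wpc. In injured nerves it exceeded it by 125.9 ± 36.0 and 187 ± 47.6 CPM. The ratio of the means was therefore larger in injured nerves (1.75 and 3.01) than in healthy nerves (1.43 and 1.36). The genotype difference in the log2 response of *Dhh* to injury was 0.30 (95% interval -0.25 to 0.84) at 2 wpc and 1.14 (0.55 to 1.74) at 4 wpc, neither called (edgeR adjusted p = 0.999 and 0.384). Over 26 alternatives the value at 4 wpc ranged from 0.97 (without injured *Lepr*-cKO mouse A) to 1.34 and was called once, without injured mouse D (1.34, edgeR adjusted p = 0.038, range 0.038 to 0.7).

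Counts assigned to *Gm49442*, which is annotated on the strand opposite to *Dhh*, were called higher in *Lepr*-cKO in all 4 comparisons. They cannot be told apart from reads of spliced or unspliced *Dhh* transcripts. The healthy nerves at 2 wpc had 3.15, 4.49, 3.77, 4.19 and 4.27 CPM in *Lepr*-ctrl and 11.3 to 17.1 CPM in *Lepr*-cKO (median 13.7, n = 6). At 4 wpc healthy nerves had 4.19, 4.54, 5.19, 5.54 and 4.24 CPM in *Lepr*-ctrl and 12.2, 16.7, 16.6, 15.5 and 16.7 CPM in *Lepr*-cKO. The genotypes did not overlap in healthy nerves, nor in injured nerves, where *Lepr*-ctrl had 2.56 to 6.21 and *Lepr*-cKO 6.33 to 14.8 CPM at 2 wpc, and 0.563 to 2.79 and 5.54 to 10.4 CPM at 4 wpc. The log2 fold changes were 1.79 (edgeR adjusted p = 0.000188) and 1.71 (0.000857) in healthy and 1.34 (0.00316) and 2.35 (0.000101) in injured nerves at 2 and 4 wpc. *Gm49442* counts equalled 1.02 ± 0.119% of the *Dhh* counts (SD, n = 5) in healthy *Lepr*-ctrl and 2.47 ± 0.259% (n = 6) in healthy *Lepr*-cKO nerves at 2 wpc, and 1.14 ± 0.169% and 2.74 ± 0.335% (n = 5 and 5) at 4 wpc. The genotypes did not overlap in this share in healthy nerves. In injured nerves they did, with 1.45 to 3.88% in *Lepr*-ctrl and 2.58 to 3.80% in *Lepr*-cKO at 2 wpc and 0.743 to 3.26% and 1.77 to 3.48% at 4 wpc. Summing the counts of both genes into 1 feature left the count of genes called among the 9 the same in every comparison. With *Gm49442* at no more than 3.88% of the *Dhh* counts in any library, this sum could change little. It cannot show how reads from the shared bases were counted.

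Other genes near *Dhh* were examined in a window of 150 kb on either side of its start. Of 16 tested genes in the window, 15 besides *Gm49442*, *Lmbr1l* (ENSMUSG00000022999, minus strand, chromosome 15, 98903917 to 98918231), whose start is 19691 bases upstream of that of *Dhh*, also had higher values in *Lepr*-cKO. Its means were 54.0 ± 5.69 (SD, n = 5) and 107 ± 16.0 CPM (n = 6) in healthy nerves at 2 wpc, 61.5 ± 4.44 and 112 ± 19.4 CPM at 4 wpc, and in injured nerves 96.5 ± 22.0 and 154 ± 37.2 CPM at 2 wpc and 87.9 ± 5.86 and 175.7 ± 52.9 CPM at 4 wpc. The genotypes overlapped in injured nerves at 2 wpc and in no other pair. The log2 fold changes were 0.99 (edgeR adjusted p = 0.00457) and 0.86 (0.0826) in healthy and 0.68 (0.0407) and 1.00 (0.0122) in injured nerves at 2 and 4 wpc, 3 of 4 past the adjusted p and none past the fold threshold. The remaining 14 tested genes of the window, *Rhebl1* and *Kmt2d* among them, had no adjusted p under 0.05 in these comparisons.

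**Figure D4:**
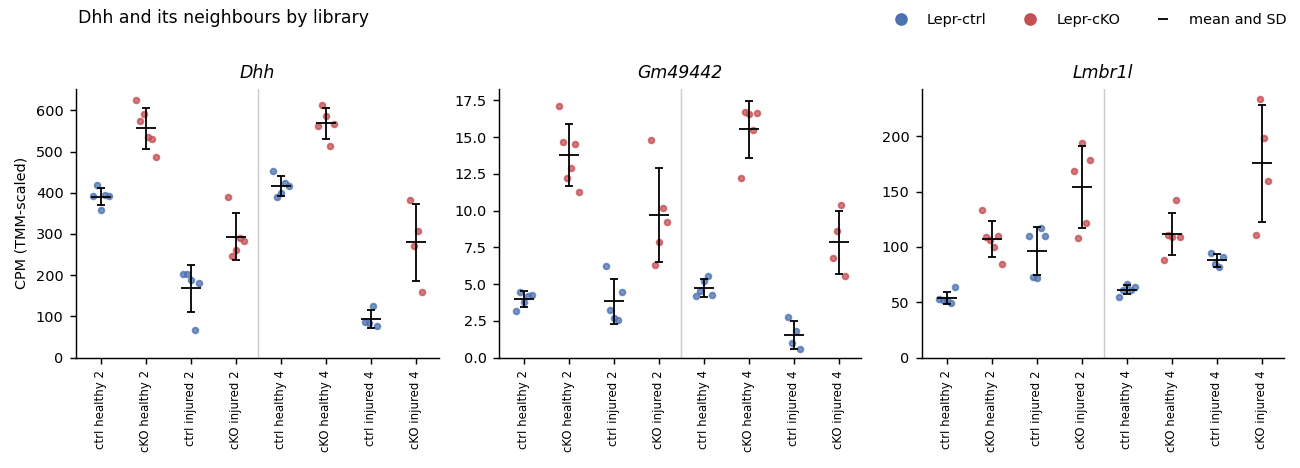
*Dhh*, the overlapping antisense gene *Gm49442* and the upstream neighbour *Lmbr1l* in every library, in CPM scaled with TMM factors (vertical axes, linear from 0), for the 8 groups named by genotype, nerve state and weeks post crush. Points are libraries and black bars the mean and SD. *Lepr*-cKO nerves lie above *Lepr*-ctrl nerves of the same state and time without overlap, except for *Lmbr1l* in injured nerves at 2 wpc.

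The targets *Ptch1*, *Gli1* and *Hhip* were not called in any genotype comparison, and neither were the other members of the set: besides *Dhh*, 0 of the 9 genes were called in either direction by edgeR. Counting *Dhh*, DESeq2 called 0, 0, 1 and 0 members in healthy nerves at 2 wpc, healthy nerves at 4 wpc, injured nerves at 4 wpc and injured nerves at 2 wpc, and 1, 1, 3 and 1 had an unadjusted edgeR p under 0.05, as had 1.2%, 1.88%, 19.9% and 6.44% of all genes. In healthy nerves, *Ptch1* differed by 0.00 (95% interval -0.72 to 0.72) and 0.46 (-0.30 to 1.22) at 2 and 4 wpc, and *Gli1* by 0.07 (-0.68 to 0.83) and 0.21 (-0.58 to 1.00), all as log2 fold changes. These intervals leave room for a difference as large as that of *Dhh*, so the data do not show that the targets were equal.

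In injured nerves at 2 wpc the log2 fold changes were -0.11 (-0.86 to 0.65) for *Ptch1* and -0.35 (-1.14 to 0.44) for *Gli1*. At 4 wpc *Dhh* was called higher in *Lepr*-cKO. There, *Ptch1* was at 90.4, 127, 170.8 and 99.7 CPM in *Lepr*-ctrl and 241, 255, 226 and 65.3 CPM in *Lepr*-cKO (log2 fold change 0.69, 95% interval -0.16 to 1.54, edgeR adjusted p = 0.362). *Gli1* was at 46.3, 47.5, 78.3 and 49.6 CPM against 80.9, 134, 120 and 37.0 CPM (0.75, -0.14 to 1.64, edgeR adjusted p = 0.343). For both genes 3 of 4 *Lepr*-cKO nerves lay above every *Lepr*-ctrl nerve and 1 below, that of mouse D, which also had the lowest *Dhh* level of its group. The same nerve had the lowest sum of 6 perineurial genes of its group (272.4 CPM, against 381.8 to 429). The part of perineurial content in the *Ptch1* and *Gli1* values was not tested. *Smo* had a log2 fold change of 0.60 (0.19 to 1.00, edgeR adjusted p = 0.0922), with 29.1 to 36.9 CPM in *Lepr*-ctrl and 36.7 to 71.6 CPM in *Lepr*-cKO. *Hhip* had 0, 20, 4 and 4 counts in *Lepr*-ctrl and 7, 0, 0 and 2 counts in *Lepr*-cKO, too few to compare (fitted log2 fold change -2.15, -4.05 to -0.24, edgeR adjusted p = 0.195). Of the 41 further pathway genes tested, 0 were called or passed the adjusted p by edgeR in any of the 4 genotype comparisons.

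The myelin and Schwann cell genes had higher values in *Lepr*-cKO in the same comparison, without passing the test. In injured nerves at 4 wpc, the 6 myelin genes summed to 23800 to 32430 CPM in *Lepr*-ctrl and 29520 to 75000 CPM in *Lepr*-cKO, and 0 of 6 were called, with a median log2 fold change of 0.772 against 0.0308 over all genes. The 4 Schwann cell markers had a median of 0.750 with 0 of 4 called. In healthy nerves the Schwann cell marker medians were 0.113 and -0.0195 at 2 and 4 wpc, and in injured nerves at 2 wpc the median was -0.0779, with 0 of 4 called each time. Without the injured *Lepr*-cKO nerve of mouse A, the *Dhh* difference in injured nerves at 4 wpc was 1.40 and still called, and that of *Smo* was 0.37. The part of the Schwann cell and myelin genes in the *Dhh* difference was not tested.

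**Figure D5:**
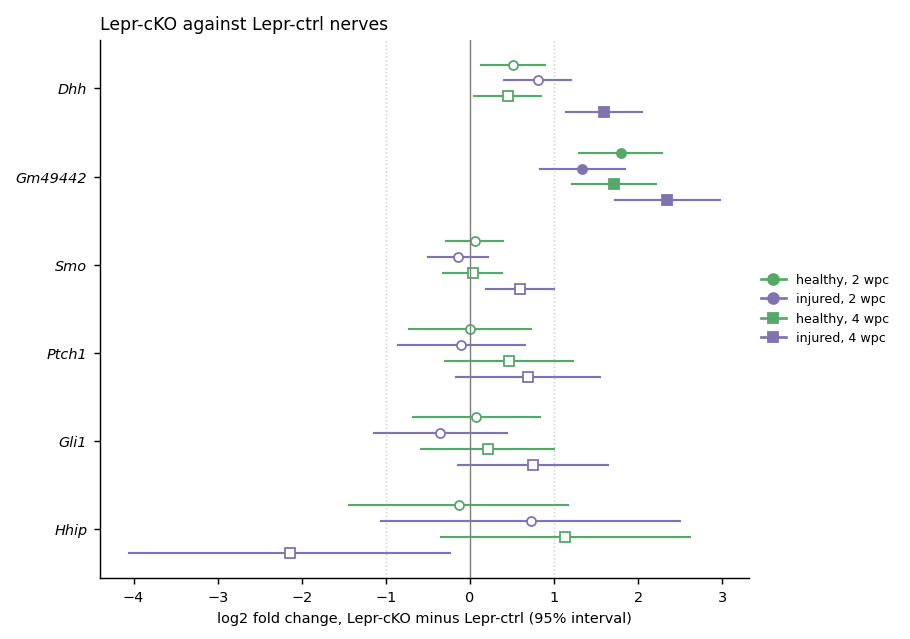
Genotype difference as log2 of *Lepr*-cKO over *Lepr*-ctrl (horizontal axis) with its 95% interval for *Dhh*, *Gm49442*, *Smo* and the targets *Ptch1*, *Gli1* and *Hhip* (vertical axis), in healthy and injured nerves (colours) at 2 wpc (circles) and 4 wpc (squares). Filled symbols were called and open ones were not, and dotted lines mark a log2 fold change of 1 in each direction. *Gm49442* is filled 4 times, *Dhh* once, in injured nerves at 4 wpc (1.59), and no target is filled.

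When the injury response itself was compared between genotypes, edgeR and DESeq2 both called 0 of the 9 genes at either time, and 0% of all genes were called by edgeR. An unadjusted edgeR p under 0.05 was reached by 0 members at 2 wpc and by 3 at 4 wpc, where 4.32% and 10.9% of all genes reached it. These 3 were *Dhh* as given above, *Smo* (0.56, 95% interval 0.03 to 1.10) and *Hhip* (-3.28, -5.70 to -0.86, on the counts listed above).

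The last comparison set 4 wpc against 2 wpc in nerves of the same genotype and state, from different mice, so that time and cohort cannot be told apart. In injured *Lepr*-ctrl nerves 1 of 9 genes was called, *Hhip* (2.51, standard error 0.87, edgeR adjusted p = 0.0368), where 7.33% of all genes were called. The call ended without injured mice C, D or E of 2 wpc or C or E of 4 wpc, and the log2 fold change was 1.23 without mouse C, which had 20 counts. *Dhh* was lower at 4 wpc in the same comparison (-0.85, standard error 0.21, edgeR adjusted p = 0.00366), short of the fold threshold where 21.2% of all genes passed the adjusted p, and past that threshold without mouse E of 2 wpc (-1.06) or mouse D of 4 wpc (-1.04). In injured *Lepr*-cKO nerves edgeR and DESeq2 called 0 of 9, against 5.29% of all genes, and 1 member had an unadjusted p under 0.05, as had 29.2% of all genes. There, *Smo* was higher at 4 wpc (0.73, standard error 0.19, edgeR adjusted p = 0.00658) without reaching the fold threshold, where 14.8% of all genes passed the adjusted p. It was 0.47 (edgeR adjusted p = 0.0906) without mouse A of 4 wpc. In healthy nerves edgeR and DESeq2 called 0 of 9 in either genotype, where 0.174% (*Lepr*-ctrl) and 0.119% (*Lepr*-cKO) of all genes were called, and 2 and 0 members had an unadjusted p under 0.05, as had 16.1% and 9.92% of all genes.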

How the data were processed

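The authors sequenced 50-base single reads from TruSeq RNA v2 libraries, aligned them with STAR 2.5 to GRCm38 and counted reads per gene with featureCounts 1.5.0-p1; the deposited values are raw counts per Ensembl gene, 1 table per library. The strand setting and the handling of reads with several matches are not given in the sources used here, so genes sharing bases or near-identical sequence are uncertain. Replicates were separate mice, numbered in the labels.

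Counts were fitted for all 39 libraries together with edgeR 4.0.16 (TMM scaling, filterByExpr with a minimum count of 10, quasi-likelihood test, R 4.3.3), and p-values were adjusted over all 18442 tested genes (Benjamini-Hochberg). A call required an adjusted p under 0.05 together with a log2 fold change beyond 1 in either direction. CPM used TMM-scaled library sizes, and RPKM divided them by the union of exon lengths. Names came from GENCODE M21. Total counts of 10905806 to 45016322 limit genes with few counts.

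The 9 genes and all lists were chosen with earlier results of these data known. Beside the 9, the text names up to 6 called pathway genes with the largest change per comparison, the genes around *Dhh* and those among the 5 most alike in pattern; a few genes are not reported here and were taken out of the lists; *Lmbr1l*, *Scube1*, *Mycn*, *Rhebl1* and *Kmt2d* were singled out after their values were seen. Both nerves came from the same mouse in 17 mice; over 5000 genes their deviations from group means correlated with r from -0.116 to 0.567, above 0.1 in 14 pairs, and the animal was an added block in an alternative fit. Further alternatives were DESeq2 1.42.0 (test and size factors), other filters, the compared groups alone, *Dhh* and *Gm49442* summed, and leaving out single libraries. On simulated counts for injured nerves of both genotypes at 4 wpc, with 200 of 18442 genes changed 4-fold, edgeR recovered 167.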

Additional observations from a re-analysis of the deposited data

Results flagged for a closer look

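Over 9 genes in 8 groups of 4 to 6 libraries, 72 sets of values in all, 8 held a library that stood apart from the rest of its group (Dixon's test at the 95% level, which flags about 1 in 20 groups by chance). *Dhh* was at 66 CPM in the injured *Lepr*-ctrl nerve of mouse E at 2 wpc, where the next was at 180 CPM. *Gli3* was at 6.22 CPM in the injured *Lepr*-cKO nerve of mouse B at 2 wpc, where the next was at 4.59 CPM. In injured *Lepr*-cKO nerves at 4 wpc, *Shh* was at 26.4 CPM in mouse A (next 11.1) and *Ptch1* at 65.3 CPM in mouse D (next 226). In the healthy nerve of mouse D, *Smo* was at 74.6 CPM (next 101) and *Hhip* at 0.82 CPM (next 0.312). *Gli1* was at 78.3 CPM in the injured *Lepr*-ctrl nerve of mouse D at 4 wpc (next 49.6), and *Hhip* at 1.02 CPM in the healthy *Lepr*-ctrl nerve of mouse F at 2 wpc (next 0.354).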

How the results depend on the processing

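Outside the fits that left out 1 library, 110 counts of called members stayed within 1.5 times their value and 8 moved. With the adjusted p alone as threshold, 5 members passed for injury in *Lepr*-cKO at 2 wpc (2 before), 1 for genotype in injured nerves at 2 wpc (0 before), and 2 and 1 for time in injured *Lepr*-ctrl and *Lepr*-cKO nerves (1 and 0 before). The 1 call for time in injured *Lepr*-ctrl nerves (*Hhip*) became 0 without an expression filter, with at least 10 counts in every library, where *Hhip* is no longer tested, and with the compared groups alone. The genotype call of *Dhh* in injured nerves at 4 wpc became 0 with the compared groups alone, a fit of fewer samples. Leaving out single libraries gave 2 to 5 members for injury in *Lepr*-cKO at 4 wpc (2 without healthy mice A or C or injured mice B or D), 0 to 2 and 0 to 1 for time in injured *Lepr*-ctrl and *Lepr*-cKO nerves, and 0 to 1 when the injury response at 4 wpc was compared between genotypes. The 6 healthy *Lepr*-cKO libraries at 2 wpc were not left out in turn.

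Reversals of direction concerned only log2 fold changes that were not called, and the cause was not tested. That of *Ptch1* between genotypes in healthy nerves at 2 wpc was -0.0013 with DESeq2, -0.0015 with DESeq2 size factors, -0.0044 without a filter, -0.0053 with at least 10 counts and -0.0016 with the compared groups alone. With the animal as a block, injury in *Lepr*-cKO gave -0.0064 for *Ptch1* and -0.072 for *Gli1* at 2 wpc and -0.15 for *Shh* at 4 wpc; the block changed the calls given in the report and no other call of the 9 genes. Leaving out single libraries, the genotype values in healthy nerves at 2 wpc ranged from -0.077 to 0.22 for *Ptch1*, -0.062 to 0.27 for *Gli1* and -0.37 to 0.48 for *Hhip*, and in injured nerves at 2 wpc from -0.48 to 0.14 for *Ptch1*. The injury values in *Lepr*-cKO ranged from -0.20 to 0.37 for *Ptch1*, -0.12 to 0.38 for *Gli1* and -0.070 to 0.49 for *Shh* at 2 wpc and from -0.43 to 0.17 for *Shh* at 4 wpc, and in *Lepr*-ctrl at 4 wpc from -0.17 to 0.53 for *Gas1*. *Hhip* was called for injury at 4 wpc only without *Lepr*-ctrl mouse B (1.86, edgeR adjusted p = 0.0419, range 0.0419 to 0.86 over single libraries) and without *Lepr*-cKO mouse A (-3.14, edgeR adjusted p = 0.0261, range 0.0261 to 0.216).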
